A study of Homo sapiens with 6 samples.

Results

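The histone genes described here were the 93 of 20532 rows of the deposited count table whose gene name begins with H1-, H2A, H2B, H3-, H3C, H4- or H4C. They were chosen by name alone. By symbol, 71 were clustered, replication-dependent genes and 21 were variant genes, and 1 was a pseudogene, H2AL1Q. Of the clustered genes, 55 lay in the large cluster at 6p22, 11 at 1q21 and 3 at 1q42, and 2 lay elsewhere (H4C16 on chromosome 12 and H2BC12L on chromosome 21). Of the variant genes, 20 lay outside the clusters, while H3-7 lay at 1q21 and was classed by its symbol.

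The libraries were made from mRNA-enriched RNA of ACHN cells, a human line from a metastatic renal carcinoma that the labels assign to the clear cell type. The shDNAJC2 group (3 libraries) carried a lentiviral short hairpin RNA against DNAJC2, and the shCtrl group (3 libraries) carried a lentiviral negative control hairpin. Both groups were therefore transduced cells, and the labels give no hairpin sequence, time after transduction or count of hairpins per target, nor whether the lines were clones or pools. Replicates are labelled as biological and nothing tells whether each had its own transduction, so the tests weigh differences against the variation among these 6 libraries, which may be technical in part.

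Clustered histone genes are switched on in S phase to package newly made DNA. Most of their mRNAs end in a conserved stem-loop bound by SLBP in place of a poly(A) tail, so a selection for polyadenylated mRNA captures few of them. The labels name mRNA enrichment without its method, and the counts below cannot stand for the amount of clustered histone mRNA in the cells. Variant genes are expressed through the cell cycle, mostly as ordinary polyadenylated mRNAs, and their products replace the clustered histones at particular places: H2A.Z (H2AZ1 and H2AZ2) at promoters and enhancers, H3.3 (H3-3A and H3-3B, which encode the same protein) in active genes, and H2A.X (H2AX) throughout the genome, where it is phosphorylated around DNA breaks. DNAJC2, also known as ZRF1, is a co-chaperone of the ribosome that has also been described as a reader of ubiquitinated H2A.

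The 3′ stem-loop is shown for H2AX and for the clustered genes that carry the results below, because it separates the mRNA forms that a poly(A) selection can and cannot see. It was searched for by its consensus in GENCODE 29 transcripts (human, given on the sense strand, 5′ to 3′), and capitals mark the 16 bases of stem and loop with 5 transcript bases on each side in lower case.
H2AX: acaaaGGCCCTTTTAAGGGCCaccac
H2AC6: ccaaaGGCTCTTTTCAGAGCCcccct
H2BC9: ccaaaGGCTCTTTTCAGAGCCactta
H3C10: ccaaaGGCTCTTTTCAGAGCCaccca
H3C8: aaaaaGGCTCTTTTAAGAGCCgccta
H4C5: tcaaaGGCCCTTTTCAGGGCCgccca

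A match was found in 49 of 58676 annotated genes (0.0835%), of which 31 were histone genes of the name rule. Of the 67 clustered genes with a transcript model, 30 had a model of the coding sequence alone, which cannot hold the element, and of the 37 with a longer model 30 held it. H2AX was the 1 variant gene among 20 with a model that held it. Its nearest annotated transcript end past the stem-loop lay 821 bases beyond it, so H2AX had an annotated form that runs past the element. A poly(A) signal lay within the last 50 bases of at least 1 of its 2 annotated transcripts, and which was not recorded. For 19 clustered genes too, the nearest annotated end lay over 100 bases past the stem-loop, with H2AC6, H2BC9, H3C8, H3C10 and H4C5 among them. Genes with both a near and a far annotated end are not in this count.

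The promoters of H2AX and H2AZ1 are shown because the comparison of these 2 genes, both encoding H2A variants, is given below. They are from RefSeq (GRCh38.p14), each from 250 bases before the gene's start to 50 after it, and capitals mark CCAAT on either strand (ATTGG on the other) and TATAAA. H2AX lies on the minus strand and its window was chr11:119095416-119095715. H2AZ1 also lies on the minus strand and its window was chr4:99950226-99950525.
H2AX: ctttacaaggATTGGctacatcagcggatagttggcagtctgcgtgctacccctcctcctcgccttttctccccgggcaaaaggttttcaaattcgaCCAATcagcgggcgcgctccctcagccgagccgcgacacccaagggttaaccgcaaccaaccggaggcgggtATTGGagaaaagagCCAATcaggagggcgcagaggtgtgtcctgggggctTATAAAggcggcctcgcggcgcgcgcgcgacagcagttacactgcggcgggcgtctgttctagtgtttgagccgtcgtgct
H2AZ1: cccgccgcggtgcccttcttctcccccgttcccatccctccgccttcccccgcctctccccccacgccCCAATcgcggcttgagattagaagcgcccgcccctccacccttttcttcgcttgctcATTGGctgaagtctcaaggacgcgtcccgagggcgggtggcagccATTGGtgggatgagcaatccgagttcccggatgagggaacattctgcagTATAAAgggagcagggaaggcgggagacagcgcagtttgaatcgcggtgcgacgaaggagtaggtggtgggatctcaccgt

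Both promoters held TATAAA starting 31 bases before the gene's start, and CCAAT was found 4 times for H2AX and 3 times for H2AZ1. Among all 35116 RefSeq promoter windows, 34.6% held CCAAT and 11.5% held TATAAA on either strand, and in the 2 promoters shown no matches overlap. CCAAT was in 85.5% of the 69 windows of clustered genes and in 86.4% of the 22 windows of variant genes. TATAAA was in 66.7% and 27.3% of these windows. These letters describe the windows only and bear on no factor.

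DNAJC2 itself was at 51.2, 50.4 and 38.5 CPM (counts scaled to TMM-normalised library size) in shDNAJC2 1, 2 and 3, against 76.7, 69.8 and 86.5 CPM in shCtrl 1, 2 and 3, so each knockdown library was below each control library. Total counts ranged from 17491462 to 25760291, and a count of 0 allowed up to 3 counts, which is 0.115 to 0.179 CPM by library and covers counting error only. The libraries did not sort by label. On the first principal component, with 79.4% of the variance, shCtrl 3 stood at 36.1 beside shDNAJC2 1 and 2 at 34.3 and 34.6, while shDNAJC2 3 stood at -1.40 and shCtrl 1 and 2 stood at -52.6 and -51.0. Results are therefore given with and without shCtrl 3. Of 5 markers of a kidney epithelial line, 4 averaged at least 5 CPM over the 6 libraries. PAX8, the lowest, was at 2.82 to 4.22 CPM in shDNAJC2 and 2.98 to 4.64 CPM in shCtrl libraries. Blood and immune genes were at or near 0 (CD3E at 0 in all 6 libraries, PTPRC and LYZ at 0.18 CPM or less). Of the endothelial genes, CDH5 was at 0 in all 6 libraries, VWF was at 0.42 to 0.72 CPM in shDNAJC2 and 0.15 to 0.54 CPM in shCtrl libraries, and PECAM1 was at 1.46 to 3.86 CPM in shDNAJC2 and 0.69 to 1.67 CPM in shCtrl libraries. PECAM1 was called higher without shCtrl 3 (edgeR adjusted p = 0.036), and the part of these genes in the histone values was not tested. All 3 fibroblast genes checked averaged at least 5 CPM. Of these, COL1A1 ranged from 572 to 1066 CPM in shDNAJC2 and from 695 to 2796 CPM in shCtrl libraries. All 3 had negative log2 fold changes, from -1.47 to -0.06, and 0 passed over 6 libraries. Without shCtrl 3, edgeR called 1 of them lower, beside 17% of all genes. With the GC trend also removed it called 3 lower, beside 17.1% of all genes. The part of these 3 genes in the histone values was not tested.

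Of the 93 histone genes, 9 had no count in any library and 19, these included, had under 10 counts in total. The low-count filter passed 55, made up of 45 clustered and 10 variant genes. The 38 that did not pass had means of at most 0.43 CPM, the highest being H2AC14. A mean of at least 5 CPM was reached by 11 clustered and 9 variant genes. In the order of their means per kilobase of the longest annotated transcript, 8 of these variant genes read H2AZ1 at 436, H3-3B at 239, H2AX at 136, H1-10 at 121, H3-3A at 105, H2AZ2 at 53.8, H2AJ at 8.14 and H3-7 at 4.86 CPM per kilobase. Clustered genes are not placed in this order, because models of the coding sequence alone make their lengths too short.

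As summed counts, clustered genes made up 14.1, 14.3 and 13.1% of all histone CPM in shDNAJC2 1, 2 and 3, against 13.2, 13.6 and 14.9% in shCtrl 1, 2 and 3. These shares describe what mRNA selection retained. The sum over clustered genes averaged 423 ± 21.5 CPM in shDNAJC2 and 434 ± 20.7 CPM in shCtrl libraries (SD, n = 3 each), and the libraries overlapped. The sum over variant genes averaged 2644 ± 10.8 CPM in shDNAJC2 and 2688 ± 79.4 CPM in shCtrl libraries (SD, n = 3 each), also with overlap. One gene, H2BC12, supplied 38.3% of the clustered sum, and H2AC6 and H1-2 supplied 13.9 and 6.74%. In the variant sum, H2AZ1 supplied 30.8% and H3-3B 24.9%.

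Without H2BC12 the clustered sum was 255, 257 and 251 CPM in shDNAJC2 1, 2 and 3, against 281, 283 and 262 CPM in shCtrl 1, 2 and 3, and the groups did not overlap. Without 6 clustered genes listed as making polyadenylated mRNA (H1-2, H2AC6, H2BC4, H2BC5, H2BC12 and H2BC21) it was 133, 140 and 136 CPM in shDNAJC2, against 150, 147 and 144 CPM in shCtrl libraries. The list is not complete, and other genes with a poly(A) signal near an annotated end, such as H2BC11 and H4C14, stay in the remaining sum. That sum was 0.927 of its control mean, with shCtrl 3 the lowest control library. By family, the clustered sums overlapped between groups for H1, H2A, H2B and H4 and did not for H3. Clustered H3 genes together gave 19.6, 19.1 and 18.5 CPM in shDNAJC2, against 23.3, 21.7 and 22.5 CPM in shCtrl libraries. Clustered H2B genes averaged 238 CPM in shDNAJC2 and 232 CPM in shCtrl libraries, a ratio of 1.03, and the ratios of the H2A and H1 means were 0.963 and 0.739. Clustered H4 genes gave 35.8, 38.2 and 39.99 CPM in shDNAJC2, against 41.7, 39.6 and 34.7 CPM in shCtrl libraries, and overlapped. Sums carry no test here, and in bulk RNA fewer cells in S phase and less histone mRNA per cell cannot be told apart.

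Over all 6 libraries edgeR's quasi-likelihood test called 0 of 13988 genes at an adjusted p under 0.05 (0%), and so 0 of the 55 histone genes. The smallest adjusted p was 0.43, and 1585 genes had an unadjusted p under 0.05. limma-voom also called 0 genes, and DESeq2 called 18 of 10083 (0.179%), of which 1 was a histone gene, H2AX. At an unadjusted p under 0.05, 2 of 10 variant genes (H2AX and H1-10) and 0 of 45 clustered genes were lower, beside 7.33% of all genes tested, and 0 histone genes were higher, beside 4% of all genes tested. The groups did not overlap for 5 histone genes that were lower (H2AX and the clustered H2AC19, H2BC17, H2AC15 and H3C12), beside 8.43% of all genes tested, and for 1 that was higher (H4C5), beside 7.33%. The lower share of the 55 is near its background.

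Without shCtrl 3, edgeR called 2413 of 14201 genes lower (17%) and 2532 higher (17.8%). Of 57 histone genes tested there, 8 were called lower, namely H2AX, H1-10, H2AJ and H3-7 of 10 variant genes and H1-2, H3C10, H2BC9 and H3C8 of 47 clustered genes. None was called higher in that fit. The share of the 57 called lower is below that of all genes, so the lower calls are no result about histone genes as a set. The 0 called higher stand beside 17.8% of all genes, and the 4 of 10 variant genes called lower stand beside 17%. Neither difference was tested. In 43 of the 55 histone genes, shCtrl 3 lay nearer the shDNAJC2 mean than the mean of shCtrl 1 and 2. The share over all genes was not counted, so this number is no result about histone genes. Over the whole table shCtrl 3 also stood beside shDNAJC2 1 and 2 on the first principal component. The part of that library in these calls shows in each gene's values below.

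**Figure D1:**
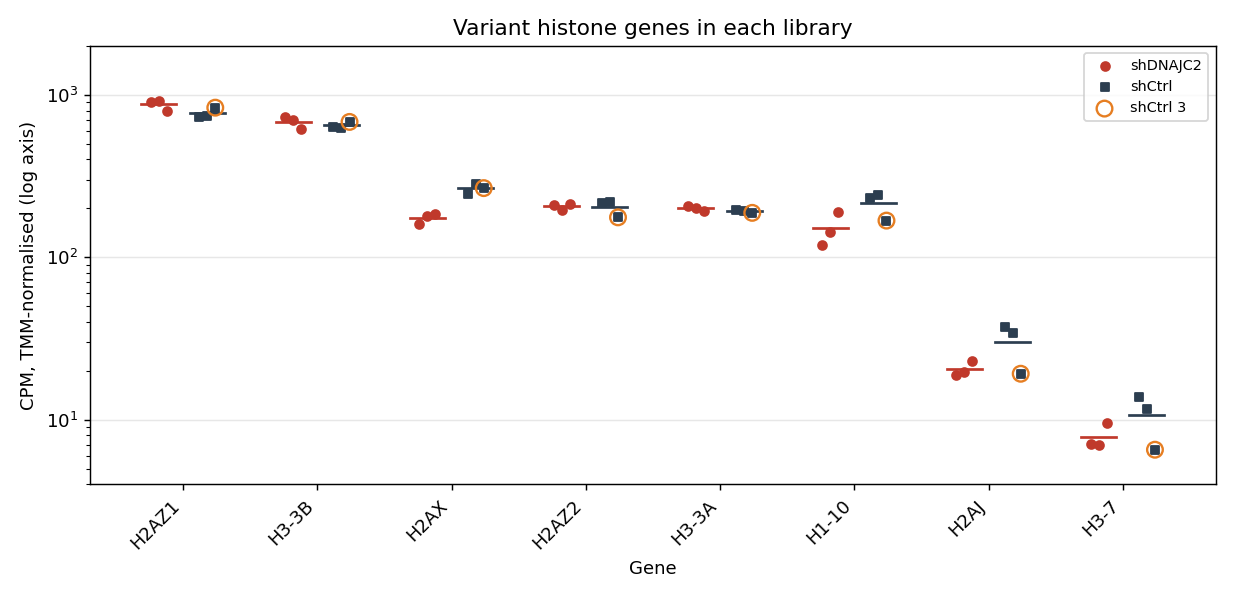
Level of 8 variant histone genes with a mean of at least 5 CPM, as TMM-normalised CPM on a log axis, with shDNAJC2 libraries (circles) left of shCtrl libraries (squares), a line at each group mean and a ring round shCtrl 3. For H2AX all 3 shDNAJC2 libraries sit at 160 to 184 CPM, below the shCtrl libraries at 245 to 284 CPM, with shCtrl 3 among the controls; for H1-10, H2AJ and H3-7 the ringed library sits with the knockdown.

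H2AX (ENSG00000188486, chromosome 11, 119093874 to 119095465 on GRCh38.p14) encodes H2A.X, whose phosphorylated form marks DNA breaks. Its level was 160, 180 and 184 CPM in shDNAJC2 1, 2 and 3, against 245, 284 and 266 CPM in shCtrl 1, 2 and 3. Each knockdown library was below each control library, and shCtrl 3 stood between the other controls. The group means were 175 ± 12.7 CPM in shDNAJC2 and 265 ± 19.8 CPM in shCtrl libraries (SD, n = 3 each), and the fitted shDNAJC2 level was 65.9% of shCtrl (95% interval 54.6 to 79.4%). On the log2 scale the change was -0.60 (SE 0.11), the value with rank 3 by p among all genes tested. Its adjusted p was 0.43 in edgeR over all 6 libraries, 0.020 in DESeq2 and 0.0049 in edgeR without shCtrl 3, where the log2 fold change was -0.59. Over the 13 other settings tried, the adjusted p ranged from 0.0049 to 0.89 and the log2 fold change from -0.64 to -0.32. A two-sided exact permutation test of the 6 CPM values returned p = 0.1, and groups of 3 can give none smaller.

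A limit on H2AX is its base composition, since GC-rich genes were lower as a class. The median log2 fold change of all genes tested was 0.16 among those under 40% GC and -0.30 among those of at least 65% GC, where 85.2% of 493 genes were negative. H2AX has 66.4% GC in its longest transcript. With each library's trend on GC content removed, its log2 fold change was -0.32 (SE 0.10) with an unadjusted p of 0.018 over 6 libraries (edgeR, adjusted p = 0.61), and -0.32 with an adjusted p of 0.039 without shCtrl 3. The RefSeq span of DPAGT1, a gene of protein glycosylation, covers that of H2AX, and the strand setting of the counting is not given in the sources used here. DPAGT1 was at 58.9, 59.3 and 59.1 CPM in shDNAJC2, against 47.8, 49.5 and 68.2 CPM in shCtrl libraries, with a log2 fold change of 0.10. Without shCtrl 3 it was 0.29 and DPAGT1 was called higher (edgeR adjusted p = 0.044), and 0.44 with the GC trend removed as well (adjusted p = 0.011).

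H2AZ1 (ENSG00000164032), the main H2A.Z gene, was at 907, 920 and 790 CPM in shDNAJC2 1, 2 and 3, against 734, 738 and 833 CPM in shCtrl 1, 2 and 3. The knockdown libraries overlapped the control range only through shDNAJC2 3 and shCtrl 3. Its log2 fold change was 0.18 (95% interval -0.13 to 0.49, edgeR adjusted p = 0.51), and without shCtrl 3 it was 0.25 (adjusted p = 0.13). H2AZ2, the second H2A.Z gene, was at 209, 196 and 212 CPM in shDNAJC2, against 216, 219 and 176 CPM in shCtrl libraries. Its log2 fold change was 0.01 (95% interval -0.27 to 0.30), and its sign turned without shCtrl 3 (-0.08) and with the GC trend removed (-0.05).

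Set against H2AZ1 within each library, H2AX stood at a CPM ratio of 0.176, 0.196 and 0.233 in shDNAJC2 1, 2 and 3, against 0.333, 0.385 and 0.320 in shCtrl 1, 2 and 3. Of the CPM of the 4 H2A variant genes H2AX, H2AZ1, H2AZ2 and H2AJ, H2AX made up 12.4, 13.7 and 15.2% in shDNAJC2, against 19.9, 22.3 and 20.6% in shCtrl libraries. Neither measure overlapped between groups, and shCtrl 3 lay on the control side in both. Both measures hold the GC difference between H2AX (66.4%) and H2AZ1 (49.1%).

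H2AJ, an H2A variant linked to senescent cells, was at 18.7, 19.7 and 23.1 CPM in shDNAJC2, against 37.1, 33.99 and 19.2 CPM in shCtrl 1, 2 and 3. Here shCtrl 3 lay within the knockdown range, and the groups overlapped. The log2 fold change was -0.55 (95% interval -1.15 to 0.05) over 6 libraries and -0.79 (edgeR adjusted p = 0.0024) without shCtrl 3. With the GC trend also removed it was -0.83, from a transcript of 42.6% GC.

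Both H3.3 genes overlapped between groups. H3-3B was at 732, 700 and 612 CPM in shDNAJC2, against 638, 627 and 681 CPM in shCtrl libraries, which is 0.07 as a log2 fold change (95% interval -0.23 to 0.37). H3-3A was at 208, 202 and 192 CPM in shDNAJC2, against 194, 192 and 188 CPM in shCtrl libraries, which is 0.07 as a log2 fold change (95% interval -0.15 to 0.29). Neither gene passed in any of the settings tried. H3-7, an H3 gene at 1q21, was at 7.10, 6.94 and 9.47 CPM in shDNAJC2, against 13.7, 11.7 and 6.53 CPM in shCtrl 1, 2 and 3. Its log2 fold change was -0.44 over 6 libraries and -0.68 (edgeR adjusted p = 0.019) without shCtrl 3, which was its lowest library. H3-5, an H3.3-like gene known from testis, averaged 2.48 ± 0.19 CPM in shDNAJC2 and 2.87 ± 1.03 CPM in shCtrl libraries (SD, n = 3 each).

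H1-10 encodes a linker histone variant, which binds DNA between nucleosomes. Its level was 119, 143 and 189 CPM in shDNAJC2 1, 2 and 3, against 233, 243 and 168 CPM in shCtrl 1, 2 and 3, so shDNAJC2 3 lay above shCtrl 3. Its log2 fold change was -0.51 (95% interval -1.02 to -0.01, edgeR adjusted p = 0.43) over 6 libraries and -0.66 (adjusted p = 0.018) without shCtrl 3. H1-10 has 68.6% GC, and with the GC trend removed its log2 fold change was -0.22 over 6 libraries and -0.38 (adjusted p = 0.040) without shCtrl 3.

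**Figure D2:**
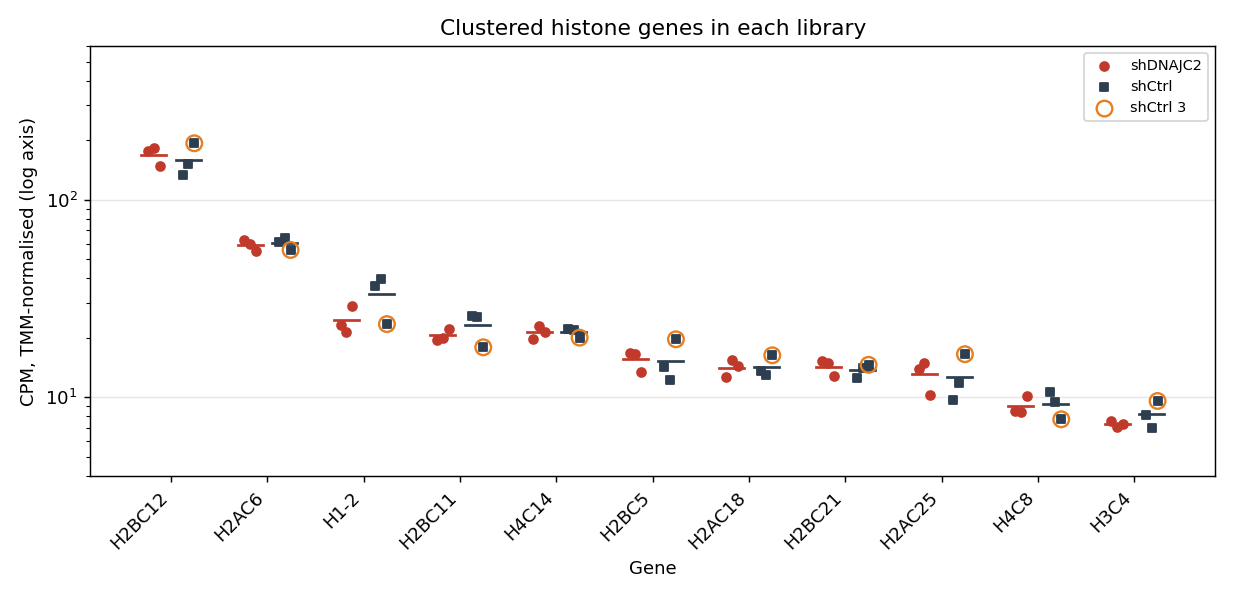
Level of the 11 clustered histone genes with a mean of at least 5 CPM, as TMM-normalised CPM on a log axis, with shDNAJC2 libraries (circles) left of shCtrl libraries (squares), a line at each group mean and a ring round shCtrl 3. The groups overlap for each of the 11 genes; for H1-2 the 2 other controls, at 36.7 and 39.7 CPM, sit above all shDNAJC2 libraries.

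Clustered genes with a mean of at least 5 CPM overlapped between groups in all 11 cases. H2BC12, an H2B gene at 6p22, was at 177, 183 and 148 CPM in shDNAJC2, against 133, 151 and 193 CPM in shCtrl 1, 2 and 3. The control libraries spanned the knockdown values, and the log2 fold change was 0.09 (95% interval -0.31 to 0.48). With the GC trend removed it was 0.31 (edgeR adjusted p = 0.61), and 0.46 (adjusted p = 0.054) with shCtrl 3 also left out. Both corrected values rest on the 61.2% GC of an H2BC12 model of the coding sequence alone, so they are uncertain. In its coding model, 50.5% of the 75-base windows are shared with another gene, so its counts are uncertain. H2AC6, an H2A gene with a long polyadenylated form, was at 62.6, 59.4 and 55.2 CPM in shDNAJC2, against 61.2, 63.9 and 55.7 CPM in shCtrl libraries, which is -0.03 as a log2 fold change (95% interval -0.28 to 0.22).

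H1-2, a replication-dependent linker histone, was at 23.3, 21.4 and 28.9 CPM in shDNAJC2, against 36.7, 39.7 and 23.5 CPM in shCtrl 1, 2 and 3. As for H1-10, shCtrl 3 stood among the knockdown libraries. The log2 fold change was -0.44 (95% interval -0.97 to 0.09) over 6 libraries and -0.63 (edgeR adjusted p = 0.010) without shCtrl 3. With the GC trend removed as well it was -0.50 (edgeR adjusted p = 0.018), with GC content from a model of the coding sequence alone. The 2 clustered H1 genes that were tested, H1-2 and H1-3, were both negative over 6 libraries.

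H2BC11 was at 19.5, 20.04 and 22.2 CPM in shDNAJC2, against 25.9, 25.5 and 17.9 CPM in shCtrl libraries. H4C14 was at 19.7, 23.0 and 21.3 CPM in shDNAJC2, against 22.1, 21.9 and 20.04 CPM in shCtrl libraries. Both are core histone genes, of H2B at 6p22 and H4 at 1q21, and their log2 fold changes were -0.17 (95% interval -0.57 to 0.24) and 0.00 (95% interval -0.28 to 0.28). By the measure given for H2BC12, 100% of the H4C14 windows are shared with another gene. Its counts are therefore uncertain, and its value near 0 may not be its own. H2BC11 passed only without shCtrl 3 and with the GC trend removed (-0.34, adjusted p = 0.032). The H2B genes H2BC5 and H2BC21, both of the polyadenylated group, had log2 fold changes of 0.02 and 0.06. H2BC5 was at 16.8, 16.5 and 13.4 CPM in shDNAJC2, against 14.2, 12.2 and 19.7 CPM in shCtrl libraries, and H2BC21 was at 15.2, 14.96 and 12.8 CPM in shDNAJC2, against 12.6, 14.01 and 14.6 CPM in shCtrl libraries.

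The H2A genes H2AC18 and H2AC25 overlapped between groups. H2AC18 was at 12.7, 15.4 and 14.3 CPM in shDNAJC2, against 13.6, 12.9 and 16.3 CPM in shCtrl libraries. H2AC25 was at 13.99, 14.9 and 10.3 CPM in shDNAJC2, against 9.68, 11.8 and 16.5 CPM in shCtrl libraries. Their log2 fold changes were -0.02 and 0.04. H4C8 was at 8.56, 8.43 and 10.1 CPM in shDNAJC2, against 10.6, 9.43 and 7.74 CPM in shCtrl libraries. H3C4 was at 7.62, 7.06 and 7.32 CPM in shDNAJC2, against 8.16, 6.99 and 9.58 CPM in shCtrl libraries. These H4 and H3 genes had log2 fold changes of -0.03 and -0.17. The span of H3C4 holds H2AC7, so reads of the pair may be mixed. In the coding model of H3C4, 100% of the windows are shared with another gene, so its counts are uncertain.

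The other clustered genes tested, 34 of 45, averaged 0.39 to 4.71 CPM, and their log2 fold changes ran from -0.82 (H3C8) to 0.60 (H4C5). H4C5, an H4 gene, was at 1.67, 1.26 and 1.07 CPM in shDNAJC2, against 0.90, 0.88 and 0.84 CPM in shCtrl libraries, with an adjusted p of 0.43 in edgeR. H2AC19 was at 2.71, 3.05 and 3.66 CPM in shDNAJC2, against 4.02, 4.47 and 4.39 CPM in shCtrl libraries, a log2 fold change of -0.45. For these genes shCtrl 3 stood with the other controls, although neither passed without it (adjusted p of 0.17 for H4C5 and 0.14 for H2AC19).

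The low genes called without shCtrl 3 had that library among the knockdown values. H2BC9 was at 1.41, 1.32 and 1.67 CPM in shDNAJC2, against 3.28, 2.63 and 1.55 CPM in shCtrl 1, 2 and 3. H3C8 was at 0.89, 0.60 and 0.76 CPM in shDNAJC2, against 1.84, 1.298 and 0.84 CPM in shCtrl libraries, and H3C10 was at 2.92, 2.33 and 3.06 CPM in shDNAJC2, against 4.35, 4.81 and 2.89 CPM in shCtrl libraries. Without shCtrl 3 their log2 fold changes were -0.99, -1.05 and -0.71 (edgeR adjusted p of 0.013, 0.028 and 0.025). All 3 carry the stem-loop shown above with an annotated transcript that runs past it, and so does H4C5, which passed in none of these fits.

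As classes, clustered and variant genes both had negative medians. Of 45 clustered genes tested, 31 had a negative and 14 a positive log2 fold change with a median of -0.11, and of 10 variant genes 6 were negative and 4 positive with a median of -0.16, beside a median of -0.02 and 7317 negative values over all 13988 genes. Clustered genes had a median GC content of 51.0% and lay on both sides of 50%. Of all genes, 57.8 to 80.5% were negative in the GC classes from 50 to 65%, and 28.3 to 43.8% in those below 50%. For 13 of the tested clustered genes the GC content was that of the coding sequence alone. Without shCtrl 3 the medians were -0.14 for clustered and -0.30 for variant genes, and -0.01 over all genes. With the GC trend removed over 6 libraries they were -0.04 and -0.14, beside 0.00 over all genes. The variant median rested on few genes, and without shCtrl 2 it was 0.02. With the GC trend removed and shCtrl 3 left out, 5 clustered and 4 variant genes were called lower, beside 17.1% of all genes, and 0 were called higher, beside 19.7% of all genes.

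**Figure D3:**
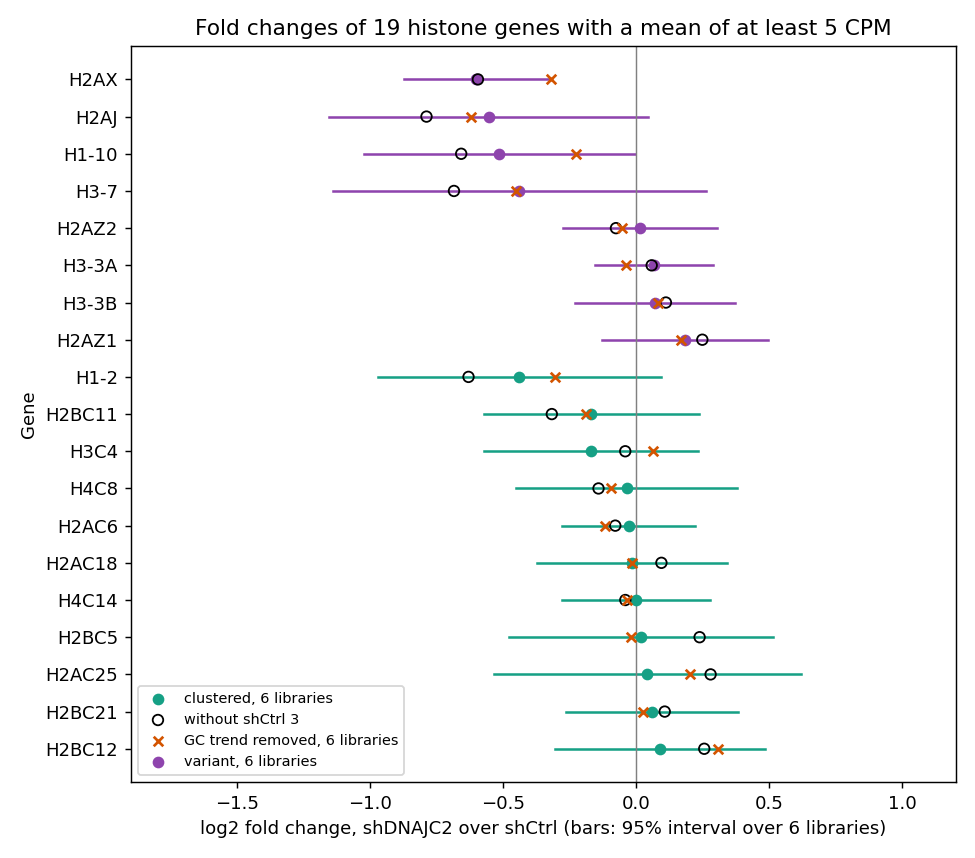
Log2 fold change, shDNAJC2 over shCtrl, of 19 histone genes with a mean of at least 5 CPM, with the 95% interval over 6 libraries as a bar, the value without shCtrl 3 as an open circle and the value with the GC trend removed as a cross. H2AX at -0.60 has an interval from -0.87 to -0.33, which stays below 0, and its cross lies at -0.32. H2AZ1, at 0.18, is the highest of the variant genes plotted. H2AC18 has no transcript model, so its cross is not corrected for GC content.

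**Figure D4:**
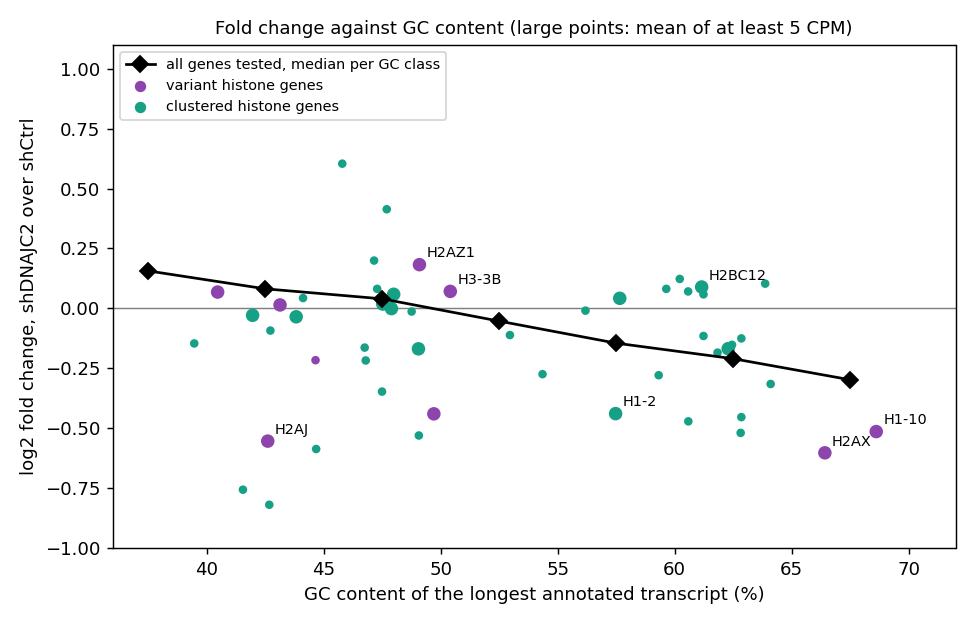
Log2 fold change over 6 libraries against the GC content of the longest annotated transcript, with black diamonds for the median of all genes tested in each GC class (the open-ended outer classes at nominal positions) and points for 51 histone genes with a transcript model. The diamonds run down to -0.30 in the class of at least 65% GC, where H2AX and H1-10 lie below them. H2AJ and H1-2 lie below the diamonds at lower GC content. For 13 tested clustered genes, H1-2 among them, the model is the coding sequence alone.

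Clustered genes were also split by annotated transcript end. Those with a poly(A) signal near an annotated end (21 genes) had a median of 1.43 CPM per kilobase. Those without it (46 genes) had a median of 0.55 CPM per kilobase, as a description with no test. The 46 include the 30 genes with a model of the coding sequence alone, which holds no 3′ end. These were placed by missing annotation, among them H1-2 and H2BC12 of the polyadenylated group. The split therefore does not separate mRNA forms. The filter passed 20 of the 21 and 22 of the 46. Short models of the coding sequence alone, such as that of H2BC12, raise CPM per kilobase in the second group. Among tested histone genes with a model, 12 of 52 shared over 50% of their 75-base windows with another gene and 14 of 55 overlapped another gene's span (H2BC12 with H4C9, and H4C15 with H2AC19 and H3C15, for example), so their counts are uncertain.

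Genes that act on histone mRNA were mixed. Of 20 tested genes for its transcription and 3′ processing, 0 passed over 6 libraries, and the median log2 fold change was 0.10. At an unadjusted p under 0.05 in edgeR, 0 were lower and 1 was higher, beside 7.33% lower and 4% higher over all genes. TUT7, which adds uridines to histone mRNA during its decay, was at 33.4, 30.2 and 33.5 CPM in shDNAJC2, against 23.4, 23.2 and 29.1 CPM in shCtrl libraries, with no overlap (log2 fold change 0.36, edgeR adjusted p = 0.43). Of the 20 genes, 0 were lower and 3 higher with no overlap between groups, beside 8.43% and 7.33% of all genes tested. The cap-binding subunit NCBP2 and the 3′ exonuclease ERI1 had log2 fold changes of 0.24 and 0.26, and SRRT, a partner of the cap-binding complex, had -0.51. Without shCtrl 3, TUT7 was called higher (0.48), and SRRT (-0.68) and the 5′ exonuclease XRN1 (-0.49) were called lower, which is 1 higher and 2 lower of 20 beside 17.8% and 17% over all genes.

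Of 28 histone chaperones and deposition factors 27 were matched and tested, 0 passed over 6 libraries, and 2 were lower and 2 higher at an unadjusted p under 0.05, beside 7.33% lower and 4% higher over all genes, with a median of 0.01. YEATS4, a subunit of complexes that place H2A.Z, was at 27.8, 25.01 and 22.3 CPM in shDNAJC2, against 16.2, 16.7 and 19.9 CPM in shCtrl libraries (log2 fold change 0.51). CABIN1, a subunit of the HIRA complex that places H3.3, was at 62.9, 69.2 and 80.1 CPM in shDNAJC2, against 94.6, 97.6 and 88.4 CPM in shCtrl libraries (log2 fold change -0.40). Neither overlapped between groups. The H2A-H2B chaperone NAP1L1 (0.44) overlapped between groups, and TONSL (-0.49), which reads newly placed histone H4, did not. Of the 27 genes, 4 were lower and 5 higher with no overlap between groups, beside 8.43% and 7.33% of all genes tested. These shares were not tested. Without shCtrl 3, edgeR called YEATS4 and NAP1L1 higher, and CABIN1, the centromere chaperone HJURP (-0.51) and ANP32E (-0.47), which removes H2A.Z, lower. These 3 lower and 2 higher of 27 stand beside 17% and 17.8% over all genes in that fit.

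Of 25 S-phase genes, 0 passed over 6 libraries, and the median log2 fold change was 0.01. At an unadjusted p under 0.05 in edgeR, 1 was lower and 0 were higher, beside 7.33% lower and 4% higher over all genes. TK1, thymidine kinase of S phase, was at 109, 118 and 140 CPM in shDNAJC2, against 186, 205 and 129 CPM in shCtrl 1, 2 and 3 (log2 fold change -0.51, edgeR adjusted p = 0.43). The replication genes MCM6, CDC6 and POLA1 had log2 fold changes of 0.22, 0.37 and 0.18. Without shCtrl 3, CDC6 was called higher, and TK1, TYMS, CCNA2 and GINS1 were called lower. These 4 lower and 1 higher of 25 stand beside 17% lower and 17.8% higher over all genes in that fit, so the lower calls are near the background. The part of S-phase genes in the values of clustered histone genes was not tested.

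Histone variants that the name rule does not reach gave further values. CENPA, the centromeric H3 variant, was at 19.6, 17.9 and 25.03 CPM in shDNAJC2, against 39.1, 41.2 and 18.1 CPM in shCtrl 1, 2 and 3, with shCtrl 3 inside the knockdown range. Its log2 fold change was -0.65 (95% interval -1.41 to 0.10) over 6 libraries and -0.94 (edgeR adjusted p = 0.0022) without shCtrl 3. MACROH2A1 and MACROH2A2, H2A variants with a large extra domain, had log2 fold changes of 0.01 and -0.24, neither of which passed. Of these 3 variants, 1 was lower and 0 were higher with no overlap between groups, beside 8.43% and 7.33% of all genes tested.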

How the data were processed

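The deposited values were raw counts for each gene in each of the 6 libraries, not normalized by the authors, as whole numbers with differing totals show. GRCh38 (hg38) is the build named, per the submitters' processing notes. The aligner, counter, annotation and strand setting are not given in the sources used here. Columns were matched by title, and 0 columns of libraries were left unused. The comparison used edgeR 4.0.16 under R 4.3.3 (quasi-likelihood F test, two-sided, TMM, filterByExpr, Benjamini-Hochberg adjustment over all 13988 genes tested, threshold 0.05, group as the only term). The scripts were tested on simulated data. DESeq2 1.42.0, limma-voom (limma 3.58.1), other size factors, a filter of 10 counts in total, a replicate block and leaving out each library were the other settings, and a loess correction for GC content was added after seeing the data. The members, classes and gene lists were chosen with earlier results of these data known. Values in each library are given for tested members with a mean of at least 5 CPM, and 4 genes with the smallest p from each list are named, besides genes that passed; other members named (H2AC19, H4C5 and others of low level) were chosen after their values were seen. Values of 1 variant gene are not reported here, though it is counted in the class sums, medians and counts. Positions and promoters are from RefSeq (GRCh38.p14), where all 93 members were matched, and transcript models are from GENCODE 29, where 88 were found.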

Additional observations from a re-analysis of the deposited data

How the results depend on the processing

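The 34 tested clustered genes under 5 CPM rest on few counts, and 1 control library stands apart from the others. Genes called numbered 0 over 6 libraries, 18 with DESeq2, 5238 with the GC trend removed and shCtrl 3 left out, and 0 to 4945 on leaving out 1 library (4945 without shCtrl 3). H2AX kept its sign in all 13 other settings: its log2 fold change was -0.59 with DESeq2 (adjusted p = 0.020), -0.32 with the GC trend removed and shCtrl 3 left out (adjusted p = 0.039), and -0.64 to -0.54 on leaving out 1 library. The median of clustered genes was -0.036 with the GC trend removed and -0.074 with shCtrl 3 left out too, and that of variant genes ran from -0.30 to 0.022 on leaving out 1 library. The summed CPM of variant genes differed by -44.4 CPM, by -139 CPM on total counts and by -148 CPM without H2AZ1.

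Signs turned for genes near 0, and the cause was not tested. With the GC trend removed, H2AZ2 was at -0.055, H3-3A at -0.037, H2BC5 at -0.020 and H3C4 at 0.062. With shCtrl 3 left out too, H2AZ2 was at -0.115, H3-3A at -0.0015 and H3C4 at 0.17. H2AC18 has no transcript model, so no GC trend was removed from it. Its value of 0.095 in that fit was also its value without shCtrl 3 alone. The GC-corrected values of H3C4 rest on a model of the coding sequence alone. H4C14 was at 0.0091 with other size factors, 0.014 with the lower filter and 0.011 with DESeq2. On leaving out 1 library, values ran from -0.076 to 0.081 for H2AZ2, -0.012 to 0.26 for H2BC12, -0.079 to 0.035 for H2AC6, -0.056 to 0.055 for H4C14, -0.11 to 0.24 for H2BC5, -0.078 to 0.095 for H2AC18, -0.11 to 0.28 for H2AC25 and -0.14 to 0.087 for H4C8.

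Same-numbered libraries did not pair: their deviations correlated at -0.38, -0.52 and -0.66. With a replicate block, 0 genes were called and H2AX had a log2 fold change of -0.60 (adjusted p = 0.71).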
